A study of Mus musculus with 6 samples.

Results

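The 10 genes followed here are Edn2, Ednrb, Fgf2, Lif, Cebpd, Bcl3, Gfap, Mt1, Mt2 and Serpina3n, a set of photoreceptor injury signals and of genes of the glial and stress response to them. They were taken by symbol from 49997 genes counted in each library, and all 10 symbols were present. The set was chosen with earlier results of these data known. RNA came from retinal cells sorted for mCherry, about 100000 cells per sample from 2 retinas of 1 mouse. All mice were Rosa26-Cas9 animals, which express SpCas9 in all cells, and all received a subretinal adeno-associated virus (7m8 coat) whose mCherry was driven by a human GRK1 promoter, which restricts it to photoreceptors. The virus carried either a guide RNA against Nr2e3, a nuclear receptor of rods (3 guide libraries, replicate 1 from a male and replicates 2 and 3 from females), or a non-targeting control guide (NTC, 3 control libraries, all from males). Mice were injected at postnatal day 21 according to the series text and at 4 weeks of age according to the treatment protocol, and retinas were taken 6 months later. The guide RNA was in the virus and not in the germ line, so the sorted cells of a retina can carry different edits.

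Stressed photoreceptors are known to release endothelin 2 (encoded by Edn2), which acts on the endothelin receptor B (Ednrb) of Muller glia, the radial support cells of the retina. Muller glia are also known to make leukemia inhibitory factor (Lif), a cytokine of the interleukin 6 family. It signals through the gp130 receptor and the transcription factor STAT3, and this axis induces the survival factor Fgf2 in photoreceptors. In reactive glia the intermediate filament gene Gfap, the acute-phase transcription factor gene Cebpd, the protease inhibitor gene Serpina3n and the metallothionein genes Mt1 and Mt2, whose products bind zinc and copper, are known to be induced. Bcl3 encodes a nuclear partner of NF-kB that is itself induced by cytokines.

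Promoter sequences are shown for the genes whose known inducers leave a recognisable motif, the metallothionein pair that sits side by side on chromosome 8 and the glial filament gene Gfap. Each is the RefSeq GRCm38.p6 window from 250 bases before to 50 bases after an annotated start, written 5′ to 3′ on the strand of the gene. Windows were found for 9 of the 10 genes and searched on both strands for the metal response element core (TGCACNC or TGCGCNC), the STAT motif (TTCNNNGAA) and the AP-1 motif (TGANTCA). The windows below are those of Mt1 (chr8:94178839-94179138, plus strand) and Mt2 (chr8:94172368-94172667, plus strand), with metal response element cores in capitals, and of Gfap (chr11:102897151-102897450, minus strand), with the STAT motif in capitals.
Mt1: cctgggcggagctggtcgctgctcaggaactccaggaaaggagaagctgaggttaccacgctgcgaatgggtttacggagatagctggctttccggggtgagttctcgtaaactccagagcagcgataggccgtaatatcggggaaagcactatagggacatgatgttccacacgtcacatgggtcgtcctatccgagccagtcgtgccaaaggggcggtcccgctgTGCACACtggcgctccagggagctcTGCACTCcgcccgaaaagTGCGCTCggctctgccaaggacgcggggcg
Mt2: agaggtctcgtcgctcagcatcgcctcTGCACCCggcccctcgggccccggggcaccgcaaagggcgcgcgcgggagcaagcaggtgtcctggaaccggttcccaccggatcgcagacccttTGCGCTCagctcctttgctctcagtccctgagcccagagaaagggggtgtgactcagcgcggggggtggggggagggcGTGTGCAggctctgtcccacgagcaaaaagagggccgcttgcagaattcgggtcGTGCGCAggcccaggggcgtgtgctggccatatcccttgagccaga
Gfap: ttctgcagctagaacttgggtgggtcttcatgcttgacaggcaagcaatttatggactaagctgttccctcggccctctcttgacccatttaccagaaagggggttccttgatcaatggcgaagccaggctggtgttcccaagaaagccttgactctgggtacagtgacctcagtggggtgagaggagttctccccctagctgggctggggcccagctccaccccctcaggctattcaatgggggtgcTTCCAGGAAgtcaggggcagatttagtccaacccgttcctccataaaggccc
The Mt1 window held 3 cores and the Mt2 window 4, the windows of Ednrb and Fgf2 held 2 each, and the other 5 windows held 0. The Mt1 window was set on an annotated start inside the gene, whose outermost start is at 94178883. Its cores all lie downstream of that position, and their number is not a count for the promoter there. Windows of Ednrb, Fgf2, Bcl3 and Serpina3n were also set on starts inside the gene. Of 32851 promoter windows of this length, 25.7% held at least 1 core, 7.11% at least 2, 1.97% at least 3 and 0.517% at least 4. The Gfap window held the only STAT motif among the 9 windows, starting 2 bases before the annotated start, a motif present in 8.30% of all windows. AP-1 motifs were in the windows of Lif and Mt2 (7.81% of all windows), and Mt2's does not overlap its metal cores. These are matches of letters, not measured binding sites.

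Libraries held 24705561 to 33098812 gene counts in the guide group and 32626751 to 34286248 in the control group. Levels are gene counts scaled to the library total (CPM), and 3 counts, the limit that a count of 0 allows, correspond to 0.0875 to 0.121 CPM, covering counting error only. The rod markers fitted the labelled cell type: 7 of them, led by Sag, Gnat1 and Rom1, summed to 78350, 76490 and 85720 CPM in guide libraries and 84320, 83900 and 83360 CPM in control libraries. Nr2e3 itself was at 2024, 1773 and 2303 CPM in guide libraries and 1695, 1608 and 1645 CPM in control libraries. Its log2 fold change, guide over control, was 0.37 (SE 0.13, edgeR adjusted p = 0.716), and the cause of this difference was not tested. The level checks no label, because edited transcripts with small insertions or deletions can still be counted. Control replicate 3 stood apart from the other controls. Summed over 12 microglia markers it had 339 CPM, against 33.0 and 36.4 CPM in control replicates 1 and 2, and it was the highest of the 6 libraries for 10 of the 12 markers. It was the highest library for 5 of the 10 genes followed here, and for 32.7% of all genes tested. Fold changes are therefore given with and without it.

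With p-values from the quasi-likelihood test of edgeR, adjusted by Benjamini-Hochberg over all 17138 genes tested, 0 of the 9 injury and glial genes that could be tested differed between guide and control libraries, where 59 genes (0.344%) did so over the whole table. Of the 9, 0 had an unadjusted p under 0.05 either, against 5.69% of all genes. Lif lay below the count filter. DESeq2, which gave a p for 8 of the 9 and not for Fgf2, and limma-voom also called 0, with 1.58% and 1.04% of all genes called, and at unadjusted p under 0.05 they had 0 (6.83% of all genes) and 1 (11.5%), which was Serpina3n. For every one of the 9 genes the guide and control ranges overlapped, while 12.2% of all tested genes showed no overlap. The data instead showed large differences between libraries within each group. Edn2, Fgf2, Cebpd and Bcl3 shared the order of their upper libraries, Ednrb ran in another order, and Mt1 and Mt2 in a further one.

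**Figure D1:**
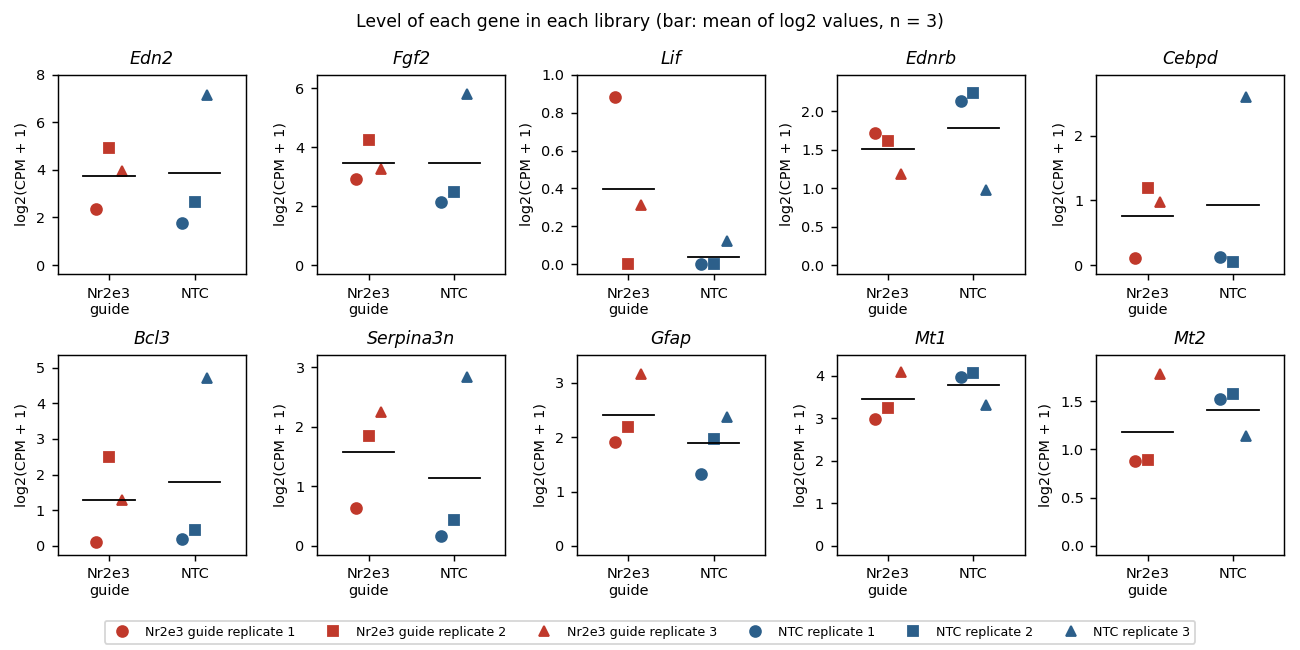
Level of each of the 10 genes as log2(CPM + 1) in each library, with guide libraries in red on the left, control (NTC) libraries in blue on the right, marker shape giving the replicate number and the bar the mean of the 3 log2 values. Control replicate 3 is the highest point for Edn2, Fgf2, Cebpd, Bcl3 and Serpina3n, and lies below both other controls for Ednrb, Mt1 and Mt2.

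Edn2, the endothelin ligand (chromosome 4, 120161206 to 120167360), was at 4.18, 29.5 and 14.4 CPM in guide replicates 1 to 3 and at 2.45, 5.28 and 141 CPM in control replicates 1 to 3. Guide replicate 1 lay among the lower controls, guide replicates 2 and 3 lay above them, and control replicate 3 lay far above every other library. The highest library exceeded the lowest 57.4-fold. The group means were 16.0 ± 12.7 and 49.5 ± 79.1 CPM (SD, n = 3 each), and the log2 fold change, guide over control, was -1.45 (SE 1.37, edgeR adjusted p = 0.995). Without control replicate 3 it was 2.11 (SE 0.79, unadjusted p = 0.0320, edgeR adjusted p = 0.509), so this library decided the sign.

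Fgf2, the basic fibroblast growth factor (chromosome 3, 37348477 to 37410106), had the same upper 3 libraries in the same order, with a smaller span. It was at 6.49, 18.1 and 8.52 CPM in guide libraries and 3.43, 4.54 and 54.6 CPM in control libraries. All 3 guide libraries lay above control replicates 1 and 2 and below control replicate 3. Its log2 fold change was -0.75 (SE 0.99, edgeR adjusted p = 0.995), and 1.52 (SE 0.50, unadjusted p = 0.0190, adjusted p = 0.426) without control replicate 3. Exons of Fgf2 overlap those of Nudt6 on the opposite strand and Gm43439 on the same strand. The kit does not mark strand, so reads there cannot be assigned to a gene by strand. Counting set aside 1.837 to 2.005% of all counts per library as ambiguous. Whether reads over these shared bases were counted as Fgf2 or set aside is not stated.

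Lif, the cytokine that signals through gp130, was low in every library. It had 23, 0 and 8 counts in guide libraries, or 0.843, 0 and 0.242 CPM, and 0, 0 and 3 counts in control libraries, the last being 0.0875 CPM. A count of 0 allows up to 0.121 CPM in guide replicate 2 and up to 0.0920 and 0.0885 CPM in control replicates 1 and 2. The highest Lif level was in guide replicate 1, where Edn2, Bcl3 and Serpina3n were at their lowest within the guide group. With no count filter its log2 fold change was 3.54 (SE 1.70, unadjusted p = 0.0510, edgeR adjusted p = 0.806). Without control replicate 3 it again lay below the count filter, and both remaining controls were at 0 counts.

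Ednrb, the receptor (chromosome 14, 103814615 to 103844508), ran in another order than its ligand. It was at 2.27, 2.06 and 1.27 CPM in guide libraries and 3.37, 3.69 and 0.963 CPM in control libraries. Control replicate 3, the highest library for Edn2, was the lowest for Ednrb. The log2 fold change was -0.46 (SE 0.58, edgeR adjusted p = 0.995), and -0.88 (SE 0.42, adjusted p = 0.652) without control replicate 3, where each guide library lay below each control. In counts, Edn2 stood to Ednrb as 1.84, 14.3 and 11.4 in guide libraries and as 0.727, 1.43 and 146 in control libraries.

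The transcription regulators had few counts in several libraries. Bcl3, the NF-kB partner (chromosome 7, 19808462 to 19822824), had 2, 115 and 47 counts in guide libraries (0.0733, 4.66 and 1.42 CPM) and 5, 12 and 868 counts in control libraries (0.153, 0.354 and 25.3 CPM). The order of the upper 3 libraries, control replicate 3, guide replicate 2 and guide replicate 3, was that of Edn2. Its log2 fold change was -1.89 (SE 1.79, edgeR adjusted p = 0.995), against 3.06 (SE 1.44, adjusted p = 0.641) without control replicate 3. Its exons overlap Gm16175 on the opposite strand.

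Cebpd, the acute-phase C/EBP factor (chromosome 16, 15887286 to 15889545), had 2, 32 and 32 counts in guide libraries (0.0733, 1.30 and 0.967 CPM) and 3, 1 and 174 counts in control libraries (0.0920, 0.0295 and 5.08 CPM). It was thus at or below the 3-count limit in guide replicate 1 and in control replicates 1 and 2, and above it in the other 3 libraries. Its log2 fold change was -0.99 (SE 1.60, edgeR adjusted p = 0.995), against 3.62 (SE 1.43, unadjusted p = 0.0380, adjusted p = 0.536) without control replicate 3. Exons of Cebpd overlap Spidr on the opposite strand.

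Serpina3n, the acute-phase protease inhibitor known as a marker of reactive astrocytes (chromosome 12, 104406646 to 104414334), was at 0.550, 2.59 and 3.75 CPM in guide libraries and 0.123, 0.354 and 6.10 CPM in control libraries. Every guide library lay above control replicates 1 and 2. The log2 fold change was 0.21 (SE 1.26, edgeR adjusted p = 0.997), and 3.27 (SE 0.96, unadjusted p = 0.0108, adjusted p = 0.345) without control replicate 3. Of the 10 neighbouring Serpina3 genes, near-identical copies among which reads could be lost or exchanged, 8 had 0 counts in all 6 libraries, and the 10 together reached at most 0.665 CPM, in guide replicate 3.

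Gfap, the filament gene of astrocytes and reactive Muller glia (chromosome 11, 102887336 to 102897200), shown above with its STAT motif, varied less than these. It was at 2.75, 3.56 and 7.92 CPM in guide libraries and 1.50, 2.89 and 4.20 CPM in control libraries. Guide replicate 3 was the highest library and control replicate 3 the next. The log2 fold change was 0.81 (SE 0.50, edgeR adjusted p = 0.995), and 1.12 (SE 0.53, adjusted p = 0.648) without control replicate 3. Without guide replicate 3 it was 0.28 (SE 0.48, adjusted p = 0.896).

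The metallothionein genes ranked the 6 libraries in the same order. Mt1 (chromosome 8, 94178883 to 94180327) was at 6.97, 8.54 and 16.1 CPM in guide libraries and 14.7, 15.9 and 9.04 CPM in control libraries. Mt2 (chromosome 8, 94172618 to 94173567) was at 0.843, 0.850 and 2.45 CPM in guide libraries and 1.87, 1.98 and 1.20 CPM in control libraries. In both genes guide replicate 3 and control replicates 1 and 2 formed the upper 3 libraries, and guide replicates 1 and 2 and control replicate 3 the lower 3. Mt1 counts were 8.26, 10.05 and 6.59 times Mt2 counts in guide libraries and 7.87, 8.03 and 7.56 times in control libraries. The log2 fold change was -0.28 (SE 0.37) for Mt1 and -0.24 (SE 0.55) for Mt2, with an edgeR adjusted p of 0.995 each. Without control replicate 3 it was -0.53 (SE 0.34, adjusted p = 0.783) and -0.47 (SE 0.58, adjusted p = 0.910). The value for Mt1 was -0.06 (SE 0.39) without guide replicate 1, -0.67 (SE 0.35, adjusted p = 0.612) without guide replicate 3, and -0.91 (SE 0.23, unadjusted p = 0.00879, adjusted p = 0.196) without replicate 3 of both groups. For Mt2 it was 0.0023, -0.89 and -1.11 in the same 3 fits. Exons of Mt2 overlap Gm45774 on the opposite strand.

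**Figure D2:**
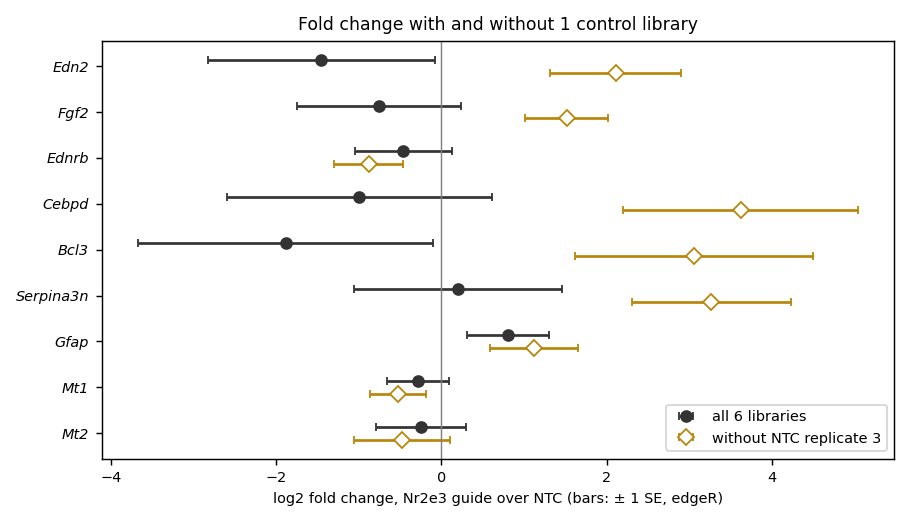
log2 fold change of guide over control for the 9 tested genes, with all 6 libraries (filled circles) and without control replicate 3 (open diamonds). Bars are ± 1 SE from edgeR. Edn2, Fgf2, Cebpd and Bcl3 lie below 0 with all libraries and above 0 without control replicate 3, while Ednrb, Gfap, Mt1 and Mt2 keep their sign.

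Without control replicate 3, edgeR again called 0 of 9 genes tested, with 0.5% of 17797 genes called. At unadjusted p under 0.05, 4 of the 9 were higher in guide libraries (Edn2, Fgf2, Cebpd and Serpina3n), against 5.02% of all genes, and 0 were lower, against 3.58%. The median log2 fold change was -0.46 over the 9 genes with all 6 libraries, beside -0.01 over all genes tested, and 1.52 without control replicate 3, beside 0.0089. Groups then did not overlap for Fgf2 and Serpina3n, higher in guide libraries as were 11.1% of all genes, nor for Ednrb, lower as were 15.3%. Since these counts come from genes picked with earlier results of these data known, they describe the libraries and are not a test of the set. Control replicate 3, the library left out, was the highest for 5 of the 10 genes, Edn2, Fgf2, Cebpd and Serpina3n among them. Leaving it out therefore raised the fold changes of these genes in advance.

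Sex and guide overlapped in this design, since only guide libraries include females. Within the guide group the male library, replicate 1, was the lowest of the 3 for Edn2, Fgf2, Cebpd, Bcl3, Serpina3n, Gfap and Mt1, and for Mt2 at 0.843 CPM against 0.850 CPM in guide replicate 2. It was the highest of the 3 for Ednrb and Lif. With sex as a term, in which males alone set the guide effect and guide replicate 1 is compared with the controls, the log2 fold change was -3.40 (SE 2.46) for Edn2, -6.63 (SE 3.91) for Bcl3 and -4.33 (SE 3.17) for Cebpd, with edgeR adjusted p = 0.829, 0.775 and 0.831. In the same fit Gfap was at 0.05 (SE 0.67), against 0.81 without the term, and Fgf2 at -1.53 (SE 1.65), Serpina3n at -1.83 (SE 2.06), Ednrb at -0.18 (SE 0.89), Mt1 at -0.85 (SE 0.52) and Mt2 at -0.92 (SE 0.81). Their adjusted p ran from 0.783 to 0.993. Sex and differences between animals cannot be told apart within the guide group.

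**Figure D3:**
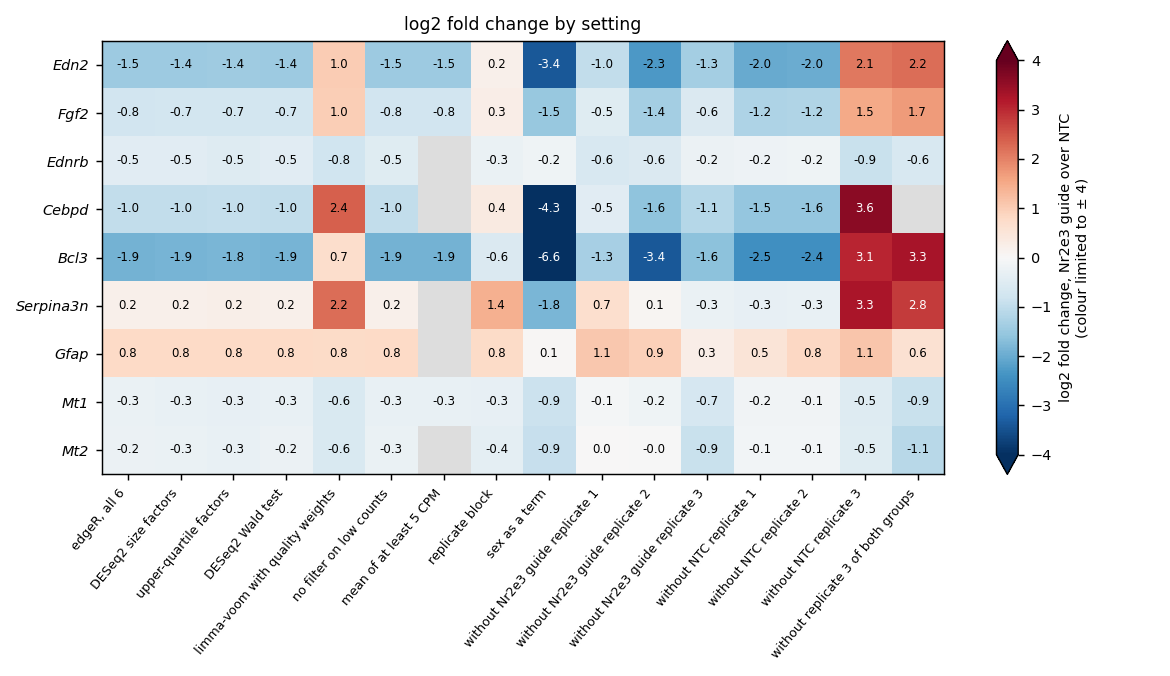
log2 fold change of guide over control for the 9 tested genes (rows) under each setting (columns), with red above 0, blue below 0 and grey where the gene was not tested. The rows of Edn2, Fgf2, Cebpd, Bcl3 and Serpina3n change colour between settings, and those of Ednrb, Gfap and Mt1 do not.

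On a scale per kilobase of exon (GENCODE M21), which allows levels of different genes to be compared, the median level over the 6 libraries was highest for Mt1 (9.53 CPM per kb), followed by Edn2 (6.73), Mt2 (2.61), Fgf2 (1.11), Gfap (0.765), Serpina3n (0.761), Ednrb (0.508), Bcl3 (0.358), Cebpd (0.141) and Lif (0.0101). Each neighbouring pair in this order had overlapping ranges over the libraries. In control replicate 3 the order was led by Edn2 at 96.3 CPM per kb, followed by Bcl3 at 10.2, whereas in control replicate 1 Mt1 led at 11.8 and Bcl3 stood at 0.0619.

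Transcripts of other cell types moved with the pattern of Edn2 and with that of the metallothioneins. The 12 microglia markers, led by Ctss, C1qb and Csf1r, summed to 37.3, 172 and 120 CPM in guide libraries and 33.0, 36.4 and 339 CPM in control libraries, and 0 of the 12 were at 0 in any library. This is the order seen for Edn2 and Bcl3 in the upper 3 libraries. The part of microglia transcripts in the levels of Edn2, Fgf2, Cebpd, Bcl3 and Serpina3n was not tested. The 10 Muller glia markers, led by Glul, Dkk3 and Rlbp1, summed to 162, 156 and 364 CPM in guide libraries and 373, 391 and 182 CPM in control libraries, with 0 of the 10 at 0 in any library. These sums are split into the same upper and lower 3 libraries as Mt1 and Mt2. The split was not particular to Muller glia. The astrocyte, vascular, and amacrine and bipolar sums given below split the same way. So did the pigment epithelium sums, though with guide replicate 3 at 2.84 CPM against 2.79 CPM in guide replicate 1. Ednrb did not follow the Muller glia sums within the guide group, at 1.27 CPM in guide replicate 3 against 2.27 and 2.06 CPM in guide replicates 1 and 2. The part of transcripts of Muller glia, or of these other cell types, in the metallothionein and Ednrb levels was not tested. In sorted cells counted in bulk, fewer glia and less RNA per glial cell cannot be told apart.

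**Figure D4:**
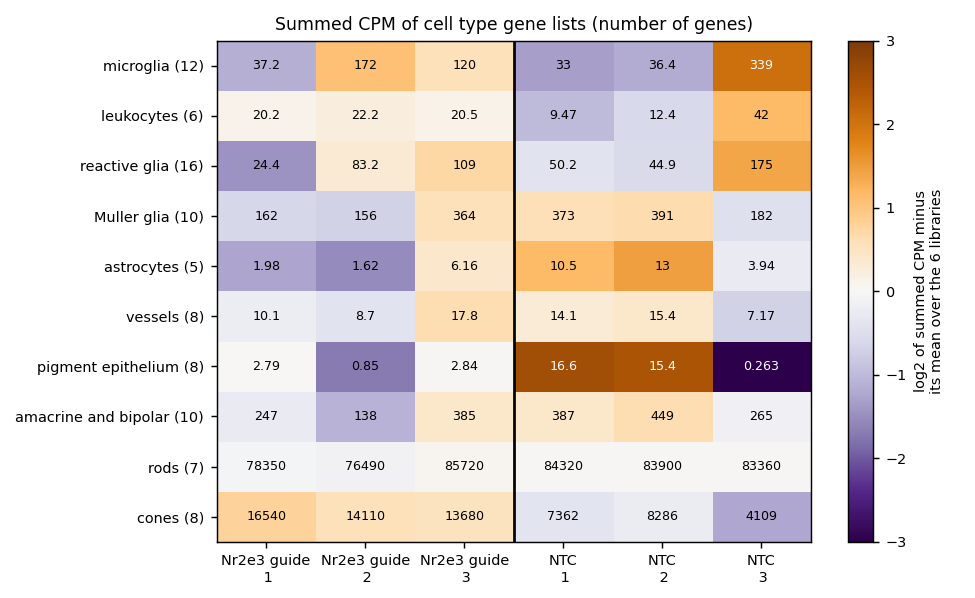
Summed CPM of gene lists for 10 cell types or states (rows, number of genes in parentheses) in each library (columns, guide on the left of the line and control on the right). Printed values are summed CPM, and colour is the log2 of the sum minus its mean over the 6 libraries. Microglia sums peak in control replicate 3 (339 CPM). Muller glia sums are highest in control replicates 1 and 2 (373 and 391 CPM), with guide replicate 3 close to them (364 CPM).

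Other lists gave the background to these patterns. The 5 astrocyte markers, Gja1, Aldh1l1 and Agt highest among them, summed to 1.98, 1.62 and 6.16 CPM in guide and 10.5, 13.0 and 3.94 CPM in control libraries, with 0 to 2 markers at 0 per library. The 6 leukocyte markers, chiefly Lyz2, Ptprc and Cd3e by level, summed to 20.2, 22.2 and 20.5 CPM in guide and 9.47, 12.4 and 42.0 CPM in control libraries, with Cd3e at 0 in all but guide replicate 1. The 8 vascular markers, led by Kdr, Rgs5 and Flt1, summed to 10.1, 8.70 and 17.8 CPM in guide and 14.1, 15.4 and 7.18 CPM in control libraries. The 8 pigment epithelium markers, led by Dct, Pmel and Ttr, summed to 2.79, 0.850 and 2.84 CPM in guide and 16.6, 15.4 and 0.263 CPM in control libraries. The 10 amacrine and bipolar markers, led by Slc6a9, Calb2 and Prkca, summed to 247, 138 and 385 CPM in guide and 387, 449 and 265 CPM in control libraries. In all of these lists, and among the 10 Muller glia and 12 microglia markers, edgeR called 0 members, and at unadjusted p under 0.05 the single gene was Agt (log2 fold change -2.21, SE 0.56, adjusted p = 0.330). The 8 cone markers, led by Gnat2, Gnb3 and Opn1sw, summed to 16540, 14110 and 13680 CPM in guide and 7362, 8286 and 4109 CPM in control libraries, with 0 called and 3 at unadjusted p under 0.05, all higher, against 5.69% of all genes. Without control replicate 3, 3 cone markers were called higher (Gnat2, Pde6c and Gnb3), against 0.5% of all genes called. In the other 8 cell type lists named here, rods included, 0 members were called. Gnb3 was highest in control replicate 3, at 2675 CPM, so leaving that library out raised its fold change in advance. Gnat2 and Pde6c were lowest there. At unadjusted p under 0.05 in that fit, 4 of the 8 cone markers were higher and 4 lower, 9 of 12 microglia markers and 2 of 2 tested leukocyte markers were higher, and 5.02% of all genes were higher. Lower were 3 of 4 tested pigment epithelium markers, 2 of 10 amacrine and bipolar markers, 1 of 10 Muller glia markers and Agt (-2.52, SE 0.55, adjusted p = 0.189), beside 3.58% of all genes. Control replicate 3 was set apart on the microglia markers and was the highest library for 10 of the 12, and for Lyz2 and Ptprc. Leaving it out therefore raised the fold changes of these markers in advance, and their count is not a test of the guide. Control replicate 3 lay below both other controls for each marker counted as lower in that fit, the 4 cone markers included. Leaving it out therefore lowered the fold changes of those markers in advance, and their count is not a test of the guide either.

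Among the partner genes of these pathways, edgeR called 0 with all 6 libraries. Of the 5 other endothelin genes, Ece1, which cleaves endothelin precursors to their active form, was the only one tested, at 14.8, 11.1 and 16.2 CPM in guide and 41.0, 40.9 and 13.2 CPM in control libraries. Its log2 fold change was -1.14 (SE 0.44, edgeR adjusted p = 0.791), and -1.53 (SE 0.20, adjusted p = 0.0277) without control replicate 3, a call among the 0.5% of genes called in that fit. Control replicate 3 lay within the range of the guide libraries for Ece1. Leaving it out therefore enlarged the difference in advance, and the call is not a test of the guide. Ednra, the other endothelin receptor, was at 0.0733, 0.688 and 0 CPM in guide and 0.245, 0.767 and 0 CPM in control libraries.

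Of 13 FGF partners, 8 were tested and 0 called, with log2 fold changes of 0.99 (SE 0.42, adjusted p = 0.874) for Spry2, a feedback inhibitor of FGF signalling, and -0.43 (SE 0.21, adjusted p = 0.942) for Fgf9, another ligand. These were, without control replicate 3, 0.73 (SE 0.40, adjusted p = 0.714) and -0.55 (SE 0.21, adjusted p = 0.534). Of 18 genes of the gp130 pathway, 11 were tested and 0 called, with Lifr, the receptor of the Lif cytokine, at -0.06 (SE 0.20, adjusted p = 0.996) and Pias3, an inhibitor of STAT3, at -0.45 (SE 0.17, adjusted p = 0.771). Lifr was, without control replicate 3, at 0.20 (SE 0.13, adjusted p = 0.792), the opposite sign, and Pias3 at -0.47 (SE 0.19, adjusted p = 0.542). Stat3 and Socs3, its feedback inhibitor, were chosen after their values were seen. Stat3 was at 23.9, 40.0 and 42.0 CPM in guide and 24.7, 26.5 and 115 CPM in control libraries, and Socs3 at 1.58, 1.30 and 3.41 CPM in guide and 0.705, 1.68 and 13.1 CPM in control libraries. Both were highest in control replicate 3, as were 7 of the 18 gp130 genes and 32.7% of all genes tested.

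Of 12 NF-kB and C/EBP partners, 9 were tested and 0 called. Tnfaip3, an inhibitor of NF-kB signalling, came closest, at 755, 514 and 631 CPM in guide and 310, 292 and 276 CPM in control libraries, and its log2 fold change of 1.18 (SE 0.17) had an adjusted p of 0.0505. Its groups did not overlap, and without control replicate 3 it was at 1.09 (SE 0.18, adjusted p = 0.0748). Nfkbia, another inhibitor, was at 0.16 (SE 0.32, adjusted p = 0.995), and at 0.24 (SE 0.36) without that library. Of 6 metal-handling partners, 5 were tested and 0 called, with Mtf1, the factor that binds metal response elements, at -0.22 (SE 0.15, adjusted p = 0.995) and the zinc transporter Slc39a10 at 0.41 (SE 0.28, adjusted p = 0.995). They were at -0.19 (SE 0.17) and 0.32 (SE 0.31) without control replicate 3.

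Of 16 genes known to rise in reactive glia, 11 were tested and 0 called, with a median log2 fold change of -0.10. A2m, alpha-2-macroglobulin, was at 1.65, 36.7 and 12.3 CPM in guide and 0.552, 0.855 and 92.6 CPM in control libraries, the order of Edn2 in the upper 3 libraries, and its log2 fold change was -0.70 (SE 1.72, edgeR adjusted p = 0.995). Lcn2, lipocalin 2, was at 7.11, 10.8 and 17.8 CPM in guide and 17.2, 15.3 and 26.8 CPM in control libraries, and its log2 fold change was -0.66 (SE 0.35, adjusted p = 0.959), and -0.44 (SE 0.36, adjusted p = 0.849) without control replicate 3. Without control replicate 3, 12 of the 16 were tested, 0 were called and 3 had an unadjusted p under 0.05, each higher in guide libraries, beside the 5.02% of all genes given above. The library left out was the highest for 6 of the 16, A2m among them, so its removal raised their fold changes in advance. A2m was then at 4.64 (SE 1.27, adjusted p = 0.303), and the median over the 12 was 0.46.

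Likeness of profiles was measured over the 6 libraries as the root mean square difference between log2(CPM + 1) values centred on their mean, among 8810 named genes of at least 5 CPM. The profiles nearest to Edn2 were those of Col25a1, a membrane collagen (0.310), Slc2a12, a glucose transporter (0.361), Pdlim3, an actin-associated PDZ-LIM protein (0.363), Fat1, an atypical cadherin (0.404), and Ankrd29 (0.413). Bcl3 lay as near, at 0.339, and Fgf2 at 0.650, where Edn2 itself varied by 1.82 around its mean. Pdlim3 was at 5.10, 49.0 and 25.4 CPM in guide and 7.20, 6.90 and 168 CPM in control libraries.

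The profiles nearest to Gfap were those of Kdm5c, an X-linked histone demethylase (0.184), Heatr6 (0.188), Fbxw9 (0.194), Coq6, an enzyme of coenzyme Q synthesis (0.195), and Hsf1, the heat shock factor (0.204), where Gfap varied by 0.555 around its mean. Those nearest to Mt1 were Hlf, a PAR bZIP transcription factor (0.0634), Bex3 (0.151), Ass1, an enzyme of arginine synthesis (0.155), Szrd1 (0.157) and Fhl1, a LIM protein (0.168), with Mt2 at 0.137 and Mt1 itself varying by 0.442. Hlf was at 19.6, 22.1 and 38.8 CPM in guide and 39.7, 42.4 and 23.0 CPM in control libraries, the upper and lower libraries being those of Mt1. Over so few libraries a near profile is a description only.

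**Figure D5:**
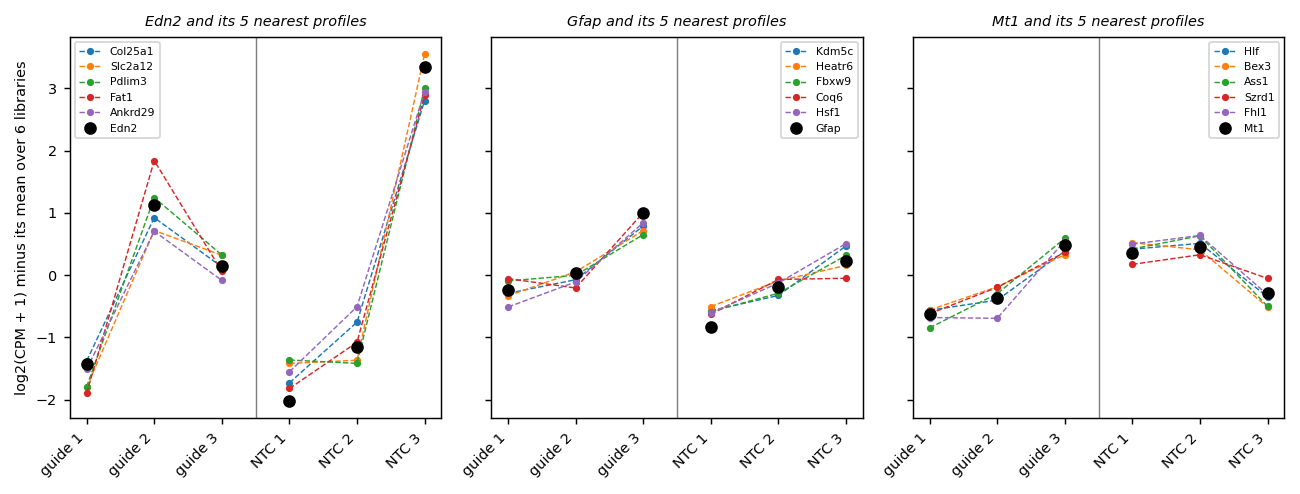
Centred log2(CPM + 1) of Edn2, Gfap and Mt1 (black) and of the 5 genes nearest to each (coloured) in the 3 guide libraries, left of the line, and the 3 control libraries, right of it. The Edn2 group peaks in control replicate 3, the Gfap group in guide replicate 3, and the Mt1 group is high in guide replicate 3 and control replicates 1 and 2.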

How the data were processed

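RNA of sorted mCherry-positive retinal cells was sequenced after SMARTer Ultra Low cDNA synthesis, 1 library per mouse, per the labels' protocols. Each deposited table holds raw counts for 49997 gene symbols, followed by 5 summary entries of reads assigned to no gene (21.6 to 23.7% of all counts), which were left out. The authors used GRCm38 and, among other tools, HTSeq 0.12.4, STAR 2.7.3a, DESeq2 1.42.0 and cutadapt, per the submitters' processing notes. Neither gene annotation nor strand setting is stated there. All 49997 symbols matched RefSeq GRCm38.p6.

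The main test was run in edgeR 4.0.16 under R 4.3.3 (TMM, filterByExpr with a minimum count of 10 and a total of 15, glmQLFit, glmQLFTest) over all genes, with group as the only term, and adjusted p under 0.05 was the threshold. The SE is the log2 fold change divided by the root of the F statistic. CPM values use plain library totals. The fit functions were tested on simulated data. Alternatives used DESeq2 1.42.0, limma 3.58.1, other scaling and filters, sex, the replicate number as a block, and each library left out.

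The 10 genes and all lists were chosen with earlier results of these data known. From partner lists the called genes or else the 2 most abundant were named, from marker lists the 3 most abundant. Of the rod list, 1 gene is not reported here. For Edn2, Gfap and Mt1 the 5 nearest profiles were named. Within each group, count differences between libraries exceeded sampling noise, so no library was counted as a duplicate. Each library came from a separate animal.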

Additional observations from a re-analysis of the deposited data

How the results depend on the processing

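The count of injury and glial genes called was 0 under all 16 alternatives run. The count over all genes, 59, was 271 with DESeq2, 179 with limma-voom, 155 with no count filter, 32 with the replicate block, 6 with sex as a term and 91 at adjusted p under 0.1. It ran from 14 to 89 with 1 library left out, and was 73 without replicate 3 of both groups, a setting chosen after seeing the data. Of 129 fold changes recomputed for the 9 tested genes, 110 kept their sign and 19 changed it, none of them past the threshold. DESeq2 gave no p for Fgf2.

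Edn2 turned to 1.03 with limma-voom, 0.21 with the replicate block and 2.11 to 2.23 in fits without replicate 3 libraries, and its lowest value with 1 library left out was -2.31. Fgf2 turned to 0.97, 0.27 and 1.52 to 1.71 under the same settings, with a lowest value of -1.37. Cebpd turned to 2.40 with limma-voom, 0.37 with the block and 3.62 without control replicate 3, and Bcl3 to 0.71 with limma-voom and 3.06 to 3.30 without replicate 3 libraries. Their lowest values with 1 library left out were -1.62 and -3.40. Serpina3n turned to -1.83 with sex as a term, and to -0.34, -0.29 and -0.28 without control replicate 1, control replicate 2 or guide replicate 3, with 3.27 without control replicate 3. Gfap was at 0.05 and Mt1 at -0.85 with sex as a term. Mt2 was at 0.0023 without guide replicate 1 and -0.89 without guide replicate 3. The turns without control replicate 3 follow from its high levels; the cause of the others was not tested.

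Replicate numbers name different animals. Deviations of same-numbered libraries correlated at 0.136, -0.144 and 0.0441 over 17138 genes, so the numbers were not taken as pairs. Lif had 3 counts or fewer in 4 libraries, Cebpd in 3 and Bcl3 in 1, where depth allows no comparison of levels.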
